A study of Drosophila melanogaster with 6 samples.

Results

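The Hox genes and exd of Drosophila melanogaster were followed in 2 parts of the wild-type wing disc, as all probe sets whose single annotated gene symbol was Antp, Ubx, Scr, abd-A, Abd-B, lab, Dfd or exd. Of these 8 genes, 3 were found in the annotation used here, with 4 of the 14010 probe sets in all: 2 for Antp and 1 each for Scr and Dfd. No probe set carried the symbol or gene ID of Ubx, abd-A, Abd-B, lab or exd, alone or together with another symbol, so these 5 genes were not analysed here. The annotation gave no symbol for 1196 of the 13966 fly probe sets, and a probe set without a symbol was not assigned to any gene.

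The wing imaginal disc is a larval epithelium from which the adult wing, its hinge and the back of the thorax develop. Discs of larvae in their last instar were dissected into body wall and wing/hinge fragments, each of which was measured on 3 Affymetrix arrays that the labels call biological replicates. All 6 arrays are wild type and no mutant, transgene or treatment is given. The question stated in the labels is which transcripts are spatially restricted in the disc, and body wall was compared with wing/hinge.

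Hox genes encode homeodomain transcription factors that give body segments their identity, and in flies they lie in the Antennapedia complex and the bithorax complex. Their proteins bind many targets together with the homeodomain cofactors encoded by exd and hth. Antp acts in the thorax and is best known for the legs that grow in place of antennae when it is expressed in the head, and the wing disc belongs to the thoracic segment in which Antp is the main Hox gene. Scr acts in the labial and first thoracic segments and Dfd in the maxillary and mandibular segments of the head. Ubx, which was not analysed here, gives the neighbouring haltere disc its identity.

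Levels are deposited intensities on a linear scale and were set against the 23 probe sets that detect control transcripts (15 bacterial, 4 of mouse and 4 of yeast), which should have no target in a fly sample. The highest of these controls was 91.8, 59.4 and 56.7 on body wall arrays 1 to 3 and 39.8, 66.1 and 46.0 on wing/hinge arrays 1 to 3. Of all fly probe sets, 46.6% lay above the highest control of the same array on all 6 arrays, and 20.7% did so on none. Of the 6 disc epithelium markers measured, 5 (ap, vg, nub, dpp and en) lay above the highest control on all 6 arrays and ptc on 5. This does not set the wing disc apart from other discs. Of the 8 leg and eye-antenna disc genes, 4 (btd, Sp1, ey and eya) also lay above the highest control on all 6 arrays. The arrays also differed in their brightest values, which reached 24976 or more on body wall 1, wing/hinge 1 and wing/hinge 2 (wide range) and 14881 or less on body wall 2, body wall 3 and wing/hinge 3 (narrow range). The labels give arrays 1 and 2 of body wall near-identical other names, and do not say whether they share RNA.

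Antp was the only one of the 3 measured Hox genes with a level above the controls on every array. Its brighter probe set (142814_at) gave 242.7, 275.2 and 222.7 on the body wall arrays and 159.4, 160.6 and 137.1 on the wing/hinge arrays. All 3 body wall values lay above all 3 wing/hinge values, and each was above all 23 controls of its own array, by 2.43 to 4.63 times the highest of them. Mean intensity was 246.9 ± 26.5 over the body wall arrays and 152.4 ± 13.2 over the wing/hinge arrays (SD, n = 3 each).

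On the log2 scale this Antp probe set differed by 0.69 (SE 0.22), body wall minus wing/hinge, or 1.62-fold with a 95% interval of 1.13 to 2.32. The difference did not pass the test across all probe sets (limma adjusted p = 0.366, unadjusted p = 0.0158), for which 0.915% of the 11698 probe sets tested were called at a Benjamini-Hochberg adjusted p under 0.05. At this SE, and with the largest limma unadjusted p among the calls (0.000457) as the limit, a log2 difference of 1.37 would have been needed for a call. That figure holds for this fit only. An exact permutation test of the 6 arrays, two-sided, gave p = 0.1, the smallest that 3 against 3 can give. Arrays of the fragments did not overlap, with body wall higher, for 8.48% of all probe sets tested, and 10.1% had a log2 difference at least as large as that of Antp. Among narrow-range arrays alone the log2 difference was 0.85, and among wide-range arrays 0.60, each with 1 fragment on a single array and no test. With the 2 sets of arrays as blocks it was 0.73 (SE 0.23; limma adjusted p = 0.39). Averaging arrays 1 and 2 of body wall into 1 sample gave 0.66 (SE 0.25; limma adjusted p = 0.578). The lowest body wall value, 222.7 on array 3, exceeded the highest wing/hinge value, 160.6 on array 2, by more than the range within either fragment.

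The other Antp probe set (151696_at) was close to the controls. It gave 64.1, 66.6 and 95 in body wall and 37.8, 63.4 and 61.2 in wing/hinge. The body wall values again lay above the wing/hinge values, but only by 64.1 against 63.4 at the closest pair. It exceeded the highest control on 3 of 6 arrays, namely body wall 2, body wall 3 and wing/hinge 3. On body wall 1 it lay above 19 of the 23 controls, and on wing/hinge 1 and 2 above 22. The log2 difference was 0.49 (SE 0.30; 1.40-fold, 95% interval 0.85 to 2.32; limma adjusted p = 0.739), and 1.91 would have been needed for a call. It was 0.38 among narrow-range arrays and 0.39 among wide-range arrays, and without wing/hinge 1, its lowest array, it was 0.25 (SE 0.29; limma adjusted p = 0.937). Both Antp probe sets thus had body wall above wing/hinge in the means, neither was called, and the interval of the dimmer one included no difference. In these fragments, fewer cells with Antp RNA and less Antp RNA per cell cannot be told apart.

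Scr and Dfd were within the range of the controls in both fragments. Scr (143336_at) gave 4.9, 3.8 and 16.1 in body wall and 21.7, 4.4 and 5.7 in wing/hinge. The number of the 23 controls below it ran from 1 to 21 per array, and its highest value, on wing/hinge 1, was 0.545 times the highest control there. Dfd (143122_at) gave 18.3, 19.1 and 6.5 in body wall and 2.6, 28.5 and 5.6 in wing/hinge. Between 1 and 17 controls lay below Dfd on each array, and its highest value, on wing/hinge 2, was 0.431 times the highest control there. The groups of both genes overlapped. Each lay above the intensity floor of 20.4 on 1 array, under the 3 arrays required for the test, so neither was tested, like 16.2% of all fly probe sets. RNA of either gene was therefore not detectable above these controls, which sets no limit on a level within their range.

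**Figure D1:**
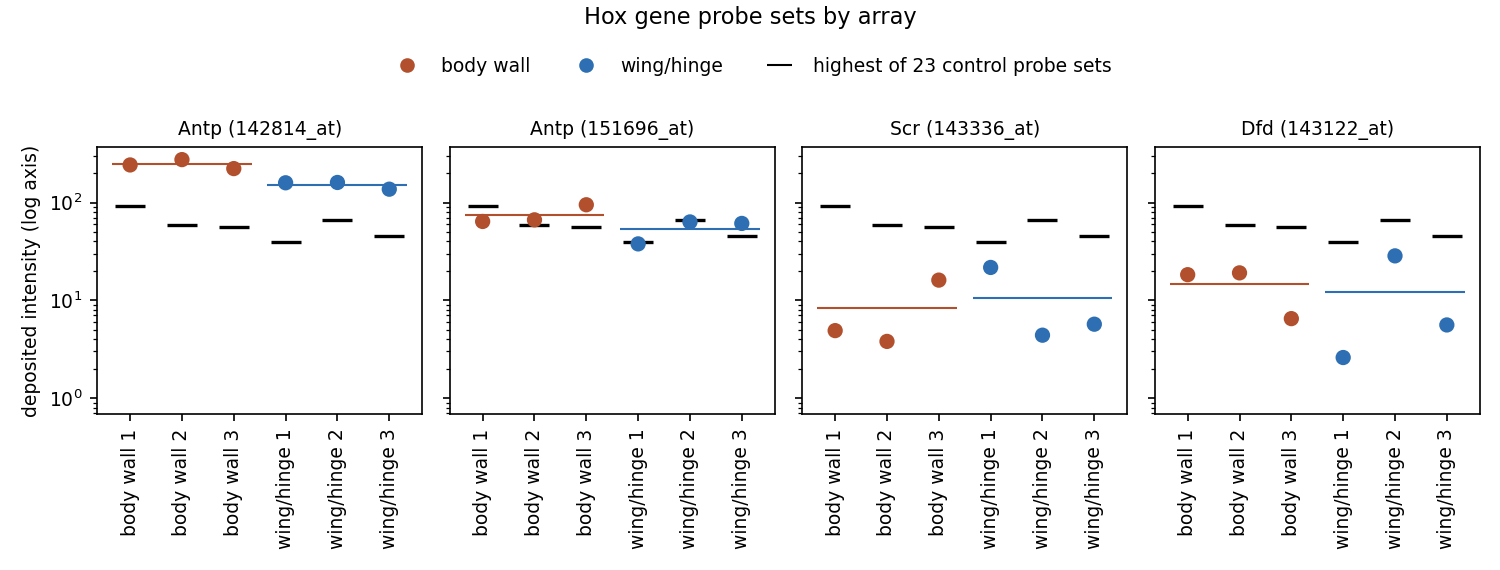
Deposited intensity (log axis) of the 4 Hox probe sets on the 3 body wall and 3 wing/hinge arrays; points are single arrays, coloured lines are group means, and black dashes are the highest of the 23 control probe sets on the same array. The brighter Antp probe set lies above the dashes on all 6 arrays, the dimmer one on 3, and Scr and Dfd on none.

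The other genes of the Antennapedia complex were read in the order of the RefSeq gene table (Release 6), from lab to Antp, an interval chosen after the files were seen. Of its 20 protein-coding genes, 14 had a probe set, 15 in all, and 11 of these were tested. Besides Antp, 4 genes lay above the highest control on all 6 arrays, none of them a homeobox gene: Edg84A, Ccp84Ae, Ccp84Ad and Ama. The first 3 belong to the cuticle protein genes between lab and pb, and Ama encodes an immunoglobulin-domain adhesion protein. The cuticle genes Edg84A, Ccp84Ae and Ccp84Ad gave log2 differences of 0.20, 0.31 and -0.05, and none was called. The Ccp84A genes are close relatives, so their probe sets may share signal. Ama averaged 1711 ± 136.7 on body wall arrays and 2919 ± 310.8 on wing/hinge arrays (SD, n = 3 each), which differ by -0.77 on the log2 scale (SE 0.22; limma adjusted p = 0.286), so that its 3 body wall arrays were all below the wing/hinge arrays without a call.

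Among the homeobox genes of that complex outside the members, zen2 was the only call. It is a Hox-derived gene next to zen, a regulator of extraembryonic tissue in the embryo. Its probe set gave 78.8, 60.9 and 53.0 in body wall and 17.6, 13.2 and 13.1 in wing/hinge. The groups did not overlap, and the wing/hinge values were all under the floor of 20.4, so the size of the difference is set by the floor: log2 1.63 (SE 0.24; limma adjusted p = 0.0349), but 2.13 with the floor halved and 0.63 (adjusted p = 0.38) with it doubled. Only body wall 2 exceeded the highest control of its array, and body wall 1 and 3 did not, so the whole measured range lies in or near that of the controls. The call of zen2 ended with the floor doubled, with an intensity trend in the variance model (limma adjusted p = 0.135), with each wing/hinge array left out in turn (adjusted p 0.115 to 0.128), with the wide-range and narrow-range arrays as blocks (adjusted p = 0.069) and with body wall 1 and 2 averaged (adjusted p = 0.105). With any body wall array left out, zen2 failed the filter and was not tested.

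The remaining homeobox genes of the complex showed no difference that passed. The segmentation gene ftz gave 23.6, 36.3 and 164.3 in body wall and 138.4, 35.4 and 106.8 in wing/hinge, with a spread within each fragment larger than the difference between them (log2 difference -0.63, SE 0.82). For zen all 6 values lay between 21.6 and 37.8 and none exceeded the highest control (log2 difference -0.04, SE 0.29). The head Hox gene pb and the anterior egg determinant bcd were above the highest control on no array and were not tested. In the bithorax complex, from Ubx to Abd-B, 1 of 6 protein-coding genes had a probe set, CG31275, with 58.6 ± 37.3 on body wall arrays and 42.1 ± 31.1 on wing/hinge arrays (SD, n = 3 each), and it was not called.

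**Figure D2:**
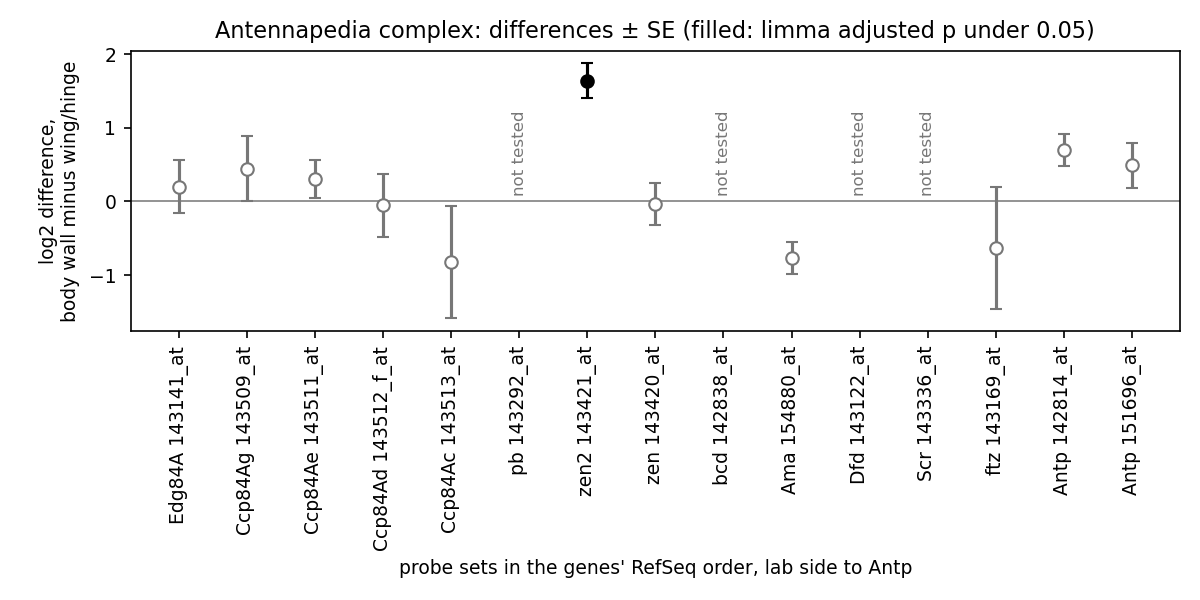
Log2 difference, body wall minus wing/hinge, with its SE (limma) for each probe set of the Antennapedia complex, in RefSeq gene order from the lab side to Antp; filled points passed an adjusted p under 0.05 and open ones did not. Only zen2 passed, at 1.63, and the 2 Antp probe sets lie at 0.69 and 0.49.

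Of 9 listed cofactors and partners of Hox proteins, 7 had a probe set, 6 were tested and none was called, against 0.915% of all probe sets tested. Their log2 differences ran from -1.05 for en to 1.01 for tsh, with a median of 0.65 (0.03 for all probe sets tested). With 6 genes, listed with earlier results of these data known, this median is a description only. The cofactor gene hth was not among the named probe sets. The zinc finger gene tsh, which acts with the trunk Hox genes, gave 1057, 854.9 and 1254 in body wall and 486.8, 481.3 and 589.7 in wing/hinge. Every tsh value in body wall exceeded those in wing/hinge (log2 difference 1.01, SE 0.24; limma adjusted p = 0.19), and tsh passed under 1 alternative, an intensity trend in the variance model (adjusted p = 0.0192). The zinc finger gene disco, a partner of head Hox proteins, also had non-overlapping groups, with 273.1, 203.5 and 218.4 in body wall and 96.5, 162.4 and 143.7 in wing/hinge (log2 difference 0.81, SE 0.28; limma adjusted p = 0.427). The posterior compartment gene en, which encodes a partner of abdominal Hox proteins, had 327.9, 434.8 and 552.5 in body wall and 771.1, 757.4 and 1200 in wing/hinge, again with no overlap (-1.05, SE 0.31; limma adjusted p = 0.323). The tsh paralogue tio, the nuclear receptor gene ftz-f1 and the disco paralogue disco-r gave log2 differences of 0.72, 0.58 and -0.18 with overlapping groups. The forkhead gene slp2 was under the floor on every array. Non-overlap in either direction held for 15% of all probe sets tested.

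Genes that maintain the silent or active state of Hox genes gave no call. Over all probe sets tested 0.915% were called, so no call in lists of this size says little about these genes. Of the Polycomb group, which keeps Hox genes silent outside their domains, all 15 genes with a probe set (of 20 listed) were tested, 13 of them above the highest control on all 6 arrays. Their log2 differences ran from -1.51 for Pc (SE 0.70; limma adjusted p = 0.603), whose groups overlapped, to 0.17 for escl, with a median of -0.04. Of the trithorax group, which keeps them active, all 12 with a probe set (of 13 listed) were tested and lay above the highest control on all 6 arrays. These ran from -0.51 for the histone demethylase gene Utx to 0.28 for the Mediator gene skd, with a median of -0.17.

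Genes described as Ubx targets in the haltere disc gave 1 call among 10 tested (of 12 listed), with a median log2 difference of 0.06. Over all probe sets tested 0.915% were called and the median was 0.03. The largest positive difference was 0.87 for bs, the fly serum response factor (SE 0.34; limma adjusted p = 0.499). Groups did not overlap, without a call, for vg (log2 difference -1.12) and sc (0.66). Non-overlap in either direction held for 15% of all probe sets tested. The called gene was kn, a COE transcription factor gene of the wing vein region, with 26.9, 2.7 and 7.1 in body wall and 336, 405.5 and 316.9 in wing/hinge. The groups lay far apart (log2 difference -3.97, SE 0.24; limma adjusted p = 0.00154), and in body wall kn exceeded the highest control on no array, so its size also depends on the floor: -4.64 with the floor halved, -3.10 with it doubled and -2.67 with it at the control 95th percentile, each called.

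**Figure D3:**
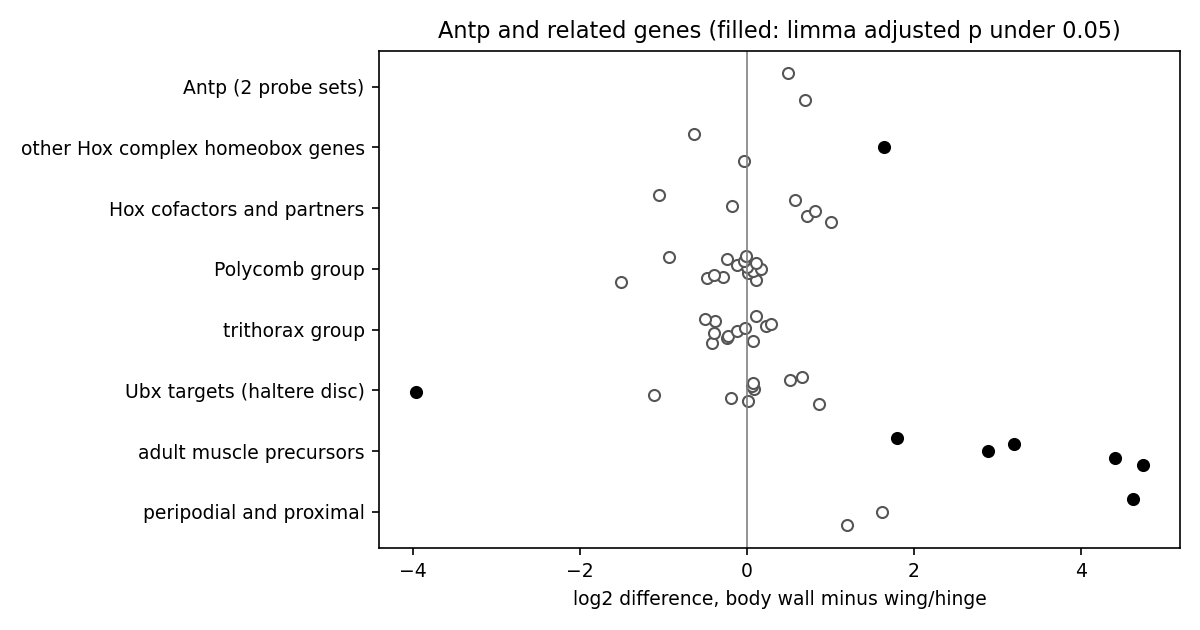
Log2 difference, body wall minus wing/hinge, of the 2 Antp probe sets and of each tested gene (brightest probe set) in the 5 Hox-related lists and 2 lists of cell type markers; filled points passed a limma adjusted p under 0.05. Polycomb and trithorax genes lie between -1.51 and 0.28 with none called, and all 5 adult muscle precursor genes lie at 1.79 or more. The marker lists shown are adult muscle precursors and peripodial and proximal genes. Those not shown had medians of -0.97 (disc epithelium), -0.58 (trachea), -0.39 (neurons and glia), 0.10 (leg and eye-antenna discs), 0.82 (haemocytes) and 1.19 (fat body).

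Markers of some other cells were also higher in body wall, and their part in the Antp values was not tested. For adult muscle precursors, the cells under the body wall epithelium, all 5 genes measured of 7 listed (twi, Him, htl, zfh1 and kon) were called higher in body wall, with a summed intensity of 2264 to 2455 in body wall and 242.4 to 304.8 in wing/hinge. The 3 peripodial and proximal genes (odd, drm and Ance) summed to 6042 to 10067 in body wall and 467.6 to 624.2 in wing/hinge, and Ance alone was called. Most of this body wall sum came from Ance, which averaged 7184 in body wall and 292.9 in wing/hinge. By comparison drm averaged 507.9 and 170.2, and odd 194.2 and 81.03 with overlapping groups. The sum therefore does not measure the amount of peripodial or proximal tissue. The 6 haemocyte genes summed to 1386 to 1633 in body wall and 337.1 to 441.9 in wing/hinge, with 1 of 5 tested called (Col4a1) and with srp and NimC1 above the highest control on no array. The largest body wall means in this sum were those of Col4a1 (866.6, against 175.8 in wing/hinge) and vkg (389.6 against 68.17). The groups of Hml (73.1 and 37.17) and Pxn (151.2 and 94.47) overlapped, so the sum does not measure the number of haemocytes. The 3 fat body genes, none called, summed to 847.1 to 1036 in body wall and 214.4 to 705.1 in wing/hinge. Sums of the 8 leg and eye disc genes, none called, overlapped, at 959.7 to 1084 in body wall and 946.4 to 1149 in wing/hinge, as did those of the 5 neuronal and glial genes, none called, at 163.7 to 257.5 in body wall and 228 to 242.3 in wing/hinge. Tracheal and disc epithelium sums were lower in body wall, at 524.1 to 799.8 in body wall and 980.5 to 1393 in wing/hinge (1 of 4 called, vvl, lower in body wall), and at 2592 to 2984 in body wall and 4986 to 7470 in wing/hinge (1 of 6 called, nub). Single genes weigh heavily in both sums, which do not measure the amount of a tissue. For disc epithelium, nub averaged 93.97 in body wall and 2039 in wing/hinge, vg 733.7 and 1597, and en 438.4 and 909.5. The groups of ap (1066 and 1271), dpp (301.6 and 285.3) and ptc overlapped. In the tracheal sum vvl averaged 180.4 and 651.3, and the groups of kni and knrl overlapped. The tracheal FGF receptor gene btl went the other way from that sum, with 123.5, 80 and 37.9 in body wall and 11.6, 18.5 and 14.2 in wing/hinge, without overlap (log2 difference 1.82, SE 0.43; limma adjusted p = 0.18).

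The genes whose pattern over the 6 arrays was most like that of the brighter Antp probe set were CG9391, fbp and Timp, at Pearson r of 0.999, 0.993 and 0.988. They were taken from 5736 probe sets of other named genes that lay above the highest control on all 6 arrays, of which 87 (1.52%) had an r of at least 0.9. With 6 arrays that share the split into fragments, such values describe these arrays only. CG9391 gave 373.5, 431.7 and 343.6 in body wall and 255.8, 258.6 and 226.8 in wing/hinge. Timp, an inhibitor of matrix metalloproteinases, gave 262.8, 262.9 and 225.3 in body wall and 158.8, 154.8 and 139.2 in wing/hinge. The log2 differences of CG9391, of the fructose-bisphosphatase gene fbp and of Timp were 0.63, 0.35 and 0.73, and none of these was called.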

How the data were processed

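Total RNA of 3 body wall and 3 wing/hinge fragments was hybridised to Affymetrix arrays. The deposited table of the authors holds linear intensities, with 1 value for each probe set on each array. This unit was read from the values themselves, which were positive, with a 2% trimmed mean of 300.0 to 300.1 on every array. How probe sets were summarised and scaled is not given in the sources used here. The median per array was 89.6 to 117.8. Precision is limited by the number of arrays. Of 13966 fly probe sets 12443 had 1 gene symbol in a platform annotation, and 12394 of these matched RefSeq by gene ID with no symbol changed.

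Values under the 20th percentile of all fly values (20.4) were set to it, and log2 was taken. Of the values of the control probe sets, 64.5% lay at or under this floor. Probe sets above the floor on at least 3 of 6 arrays entered a two-sided test without a block in R 4.3.3 (limma 3.58.1, functions lmFit and eBayes, Benjamini-Hochberg over all 11698 tested), and 44 control probe sets were left out. The fit was also run on simulated data with independent noise for every value and added differences larger than those of Antp. Such data leave out effects shared across an array or between arrays, so they do not test these. A listed gene was represented by its brightest probe set. Named were all member probe sets, called genes and the largest differences of each related list, and the 3 genes most like Antp. Other list and complex genes were named after their values were seen. Alternatives covered scaling, floor, filter, variance model, blocks, averaging of body wall 1 and 2 and each array left out. Members and lists were chosen with earlier results of these data known. The labels call the arrays biological replicates and say nothing of separate dissections, so p-values measure the spread between these arrays.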

Additional observations from a re-analysis of the deposited data

How the results depend on the processing

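Neither Antp probe set was called under any of the 20 alternatives with a test (limma adjusted p 0.131 to 0.578 for 142814_at and 0.664 to 0.937 for 151696_at), and both differences stayed above 0 in all 22, from 0.60 to 0.85 and from 0.25 to 0.62. With single arrays left out they ran from 0.61 to 0.77 and from 0.25 to 0.62. No member probe set was called under any alternative, while the calls over all probe sets ran from 10 to 152 around 107: 52 with arrays blocked by their brightest values, 49 with body wall 1 and 2 averaged, and 31 to 44 with 1 array left out. Without the filter Scr and Dfd gave -0.03 and -0.16, and with the floor halved Dfd gave 0.09, none called. Of the member probe sets 2 instead of 1 exceeded the highest control when at least 3 arrays were required in place of all 6. The floor was exceeded on all 6 arrays by 2 member probe sets. It is a lower threshold than the highest control, with only 64.5% of control values at or under it. In the 5 lists of Hox complex neighbours, cofactors, Polycomb and trithorax genes and Ubx targets, cell type markers not counted, the 2 calls (zen2 and kn) numbered 3 with an intensity trend in the variance model, where kn, tsh and vg (adjusted p = 0.0192 and 0.0145 for the last pair) were called and zen2 was not, 1 with the floor doubled or at the control 95th percentile, with the replicate block, with the block by brightest values, with body wall 1 and 2 averaged and with any array left out (1 to 1), and 0 when a probe set had to exceed the floor on all 6 arrays, where neither was tested. The call of kn held in all 19 alternatives that tested it, and that of zen2 in 7 of 15. For kn the limma adjusted p was largest with the replicate block, at 0.0499, just under the threshold. With the replicate block the brighter Antp difference was 0.69 (SE 0.22; limma adjusted p = 0.481), zen2 had an adjusted p of 0.169, and 10 probe sets were called. Deviations of same-numbered arrays correlated at 0.06, -0.16 and 0.19, and only arrays 3 correlated best with each other. The labels give no pairing, and so few values cannot decide whether same-numbered arrays share a dissection or batch.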
